A study of Mus musculus with 40 samples.

Results

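The transcripts described here are 6 genes of the 2 protein families that form gap junctions and large membrane channels. They are the connexins Gja1, Gjb6, Gjb2 and Gjc3 and the pannexins Panx1 and Panx2, taken by symbol from each of 40 count files. All 6 were found, out of 32531 gene rows, and the files list 23 connexin and pannexin genes in all. RNA came from ribosomes of adult Tg(Aldh1l1-EGFP/Rpl10a)JD130Htz mice, in which the Aldh1l1 promoter, active in astrocytes, drives an EGFP-tagged ribosomal protein Rpl10a. The tagged ribosomes were pulled down with antibodies against EGFP (translating ribosome affinity purification, TRAP), and every library carries this transgene of 1 line.

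Libraries were made from stressed, resilient and control mice. On each of 10 days stressed mice had 10 minutes of contact with an aggressor of the CD1 strain, were otherwise kept behind a divider in the same cage, and then had a social interaction index below 1. Resilient mice had the same 10 days of defeat and an index above 1. Control mice were not defeated, lived in groups in the same room and also had an index above 1. Tissue was taken 2 days after the last defeat, and each library was a pool of 2 mice, or of 4 to 6 mice for the nucleus accumbens. The prefrontal cortex (PFC) had 5 stressed, 4 resilient and 3 control libraries, the hippocampus (HIP) 5, 3 and 3, the nucleus accumbens (NAC) 4, 3 and 3, and the caudate putamen (CPU) 3, 2 and 2. The p-values measure the spread between these pools. The labels do not say which mice gave several regions. Fits that join regions, among them those of the mean of regions, treat all libraries as independent. Their p-values would not hold as given if 1 mouse gave several regions.

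Connexins assemble in sixes into hemichannels, and hemichannels of neighbouring cells dock into gap junctions that let ions and small metabolites pass. In astrocytes Cx43, encoded by Gja1, and Cx30, encoded by Gjb6, form most of the junctions that join the cells into a network. Cx26, encoded by Gjb2, is known from astrocytes and the meninges, and Cx29, encoded by Gjc3, from oligodendrocytes and Schwann cells. Pannexins form channels of single membranes and are not thought to make gap junctions in the brain. Panx1 is a widely made ATP release channel and Panx2 is found mainly in neurons of the central nervous system.

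Gjb2 and Gjb6 are neighbours on chromosome 14, both on the minus strand. In GRCm38 with GENCODE gene models, Gjb2 lies at chr14:57098600-57104702 and Gjb6 at chr14:57123303-57133611, with a gap of 18600 bases. Gja1 lies at chr10:56377330-56402513 on the plus strand, Gjc3 at chr5:137953461-137963098 on the minus strand, Panx1 at chr9:15002128-15045478 on the minus strand and Panx2 at chr15:89059734-89073567 on the plus strand. The span of Panx2 overlaps the antisense gene 1810021B22Rik, with no shared exon base. The other 5 overlap no annotated gene. The counts cover whole genes, so no value can be given to an exon, an intron or a UTR.

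Promoters are shown for Gja1, Gjb6 and Gjb2, the 3 connexins whose levels varied together between libraries of 1 group. The table of RefSeq promoters used (GRCm38.p6, 250 bases before to 50 after the start) held 5 of the 6 members, and Panx2 is named only. Each window of 300 bases is printed 5′ to 3′ in the direction of the gene, in lower case with motif matches in capitals. They are Gja1 at chr10:56377050-56377349 on the plus strand, Gjb6 at chr14:57133562-57133861 on the minus strand and Gjb2 at chr14:57104653-57104952 on the minus strand.
Gja1: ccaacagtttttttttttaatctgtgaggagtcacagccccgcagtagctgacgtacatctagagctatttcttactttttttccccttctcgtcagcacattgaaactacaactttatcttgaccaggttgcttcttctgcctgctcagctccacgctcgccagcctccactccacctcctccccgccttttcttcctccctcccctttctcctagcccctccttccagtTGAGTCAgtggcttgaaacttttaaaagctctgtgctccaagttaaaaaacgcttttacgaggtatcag
Gjb6: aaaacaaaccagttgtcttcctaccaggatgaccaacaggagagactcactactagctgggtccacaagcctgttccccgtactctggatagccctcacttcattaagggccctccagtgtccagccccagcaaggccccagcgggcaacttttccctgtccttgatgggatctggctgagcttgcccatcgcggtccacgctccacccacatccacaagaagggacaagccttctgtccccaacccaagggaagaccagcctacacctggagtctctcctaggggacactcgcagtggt
Gjb2: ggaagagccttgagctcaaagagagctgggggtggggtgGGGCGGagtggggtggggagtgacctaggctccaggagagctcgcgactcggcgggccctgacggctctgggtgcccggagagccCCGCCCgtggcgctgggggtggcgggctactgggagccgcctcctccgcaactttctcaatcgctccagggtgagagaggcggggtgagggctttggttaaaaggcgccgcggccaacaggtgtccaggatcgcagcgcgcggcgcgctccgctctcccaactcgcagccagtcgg

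Both strands of each window were searched for 6 motifs, and the matches found do not overlap. They were a TATA box (TATAAA, in 13.6% of promoters), an SP1 box (GGGCGG), an AP-1 site (TGAGTCA), a cAMP response element (TGACGTCA, 1.79%), a glucocorticoid receptor half-site (AGAACA, 19.0%) and an E-box (CACGTG, 7.15%). The Gja1 window held 1 AP-1 site, starting 19 bases before the start (offset -19), which 5.2% of all 32851 promoters hold. Gjb2 had an SP1 box at offsets -211 and -126, which at -126 reads CCGCCC because it is on the other strand, a motif found in 35.7% of promoters. None of the 6 motifs was found in the windows of Gjb6, Gjc3 or Panx1. The 3 printed windows also differ in base composition, with a GC content of 47.7% for Gja1, 57.3% for Gjb6 and 70.0% for Gjb2, against a median of 52.7% over all promoters. A match is a description of letters and was not tested for binding.

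Counts in genes totalled 21.3 to 33 M per library (median 25.6 M), and a count was seen for 17485 to 19214 genes. The 12 astrocyte markers, the highest of which was Aldoc, summed to between 24800 and 45200 CPM (counts scaled to the total of the library in genes) in each library. Markers of other cells were also present. The 10 neuron markers summed to 635 to 5780 CPM, the 12 oligodendrocyte markers to 761 to 2950 CPM and the 10 microglia markers to 18.2 to 87.9 CPM. None of the neuron, oligodendrocyte and microglia markers was at 0 in any library. The 9 choroid plexus markers reached 10800 CPM in the hippocampus. In such pulldowns fewer cells of a type and less RNA per cell cannot be told apart. Some file names write the region with its abbreviation (long form) and others with 1 letter (short form). The labels do not say what this stands for, and values of both forms are given below because the members differed between them.

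Gja1 and Gjb6 carried nearly all the counts of the 6 genes. Over the 40 libraries Gja1 ran from 309 to 1440 CPM with a median of 658, and Gjb6 from 190 to 642 CPM with a median of 377. Gjb2 ran from 8.12 to 38.8 CPM, Gjc3 from 5.58 to 21.7 CPM, Panx1 from 3.26 to 10.0 CPM and Panx2 from 1.41 to 26.8 CPM. These lower levels still rested on at least 251 counts per library for Gjb2, 147 for Gjc3, 83 for Panx1 and 37 for Panx2. All 6 members passed the filter on low counts in every comparison.

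Levels can be compared between genes only per length. Per kb of the longest principal or CCDS transcript, the median level over the 40 libraries was 207 CPM per kb for Gja1 and 179 for Gjb6. It was 7.15 CPM per kb for Gjb2, 2.73 for Gjc3, 1.38 for Panx2 and 1.00 for Panx1. With the union of all exons as the length, Gja1 had 64.1 and Gjb6 141 CPM per kb, so the order of these 2 depends on the gene model. The 2 astrocyte connexins stayed well above the other 4 with either length.

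**Figure D1:**
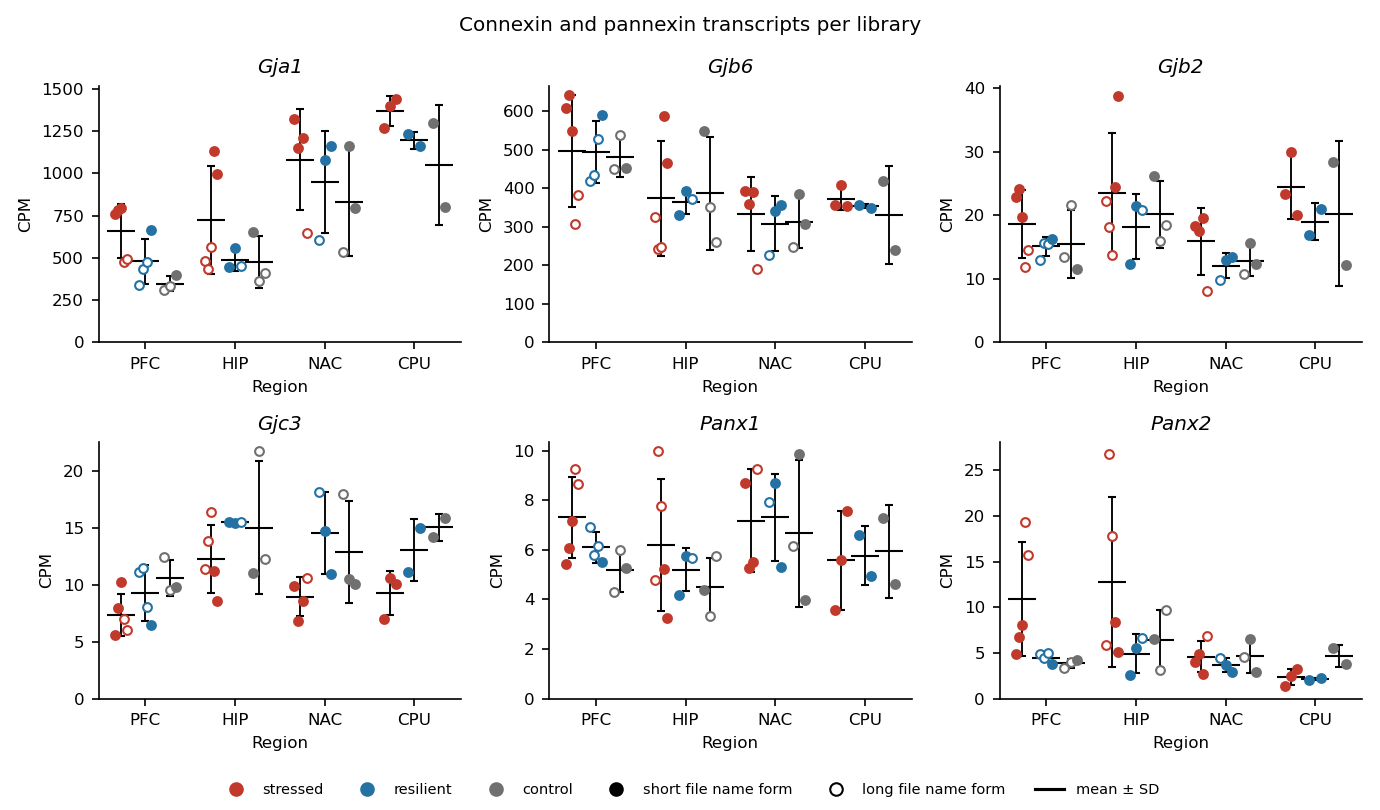
CPM of the 6 members (y axes, from 0) in every library, by region (x axis), with stressed, resilient and control libraries from left to right in each region. Filled points are short-form and open points long-form libraries, and black lines are the group mean ± SD. Mean Gja1 of control libraries is lowest in the PFC (347 CPM) and highest in the CPU (1050 CPM), and the highest Panx2 points are 2 stressed HIP and 2 stressed PFC libraries of the long form.

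The 4 regions were first compared in undefeated mice. Gja1 differed between regions and was lowest in the prefrontal cortex. Gja1 had 309, 334 and 398 CPM in PFC control libraries. In the other control libraries it had 363, 410 and 653 CPM in the HIP, 533, 793 and 1160 CPM in the NAC, and 800 and 1300 CPM in the CPU. The PFC range overlapped the HIP range and no other. A joint test of the 4 regions called Gja1 (edgeR quasi-likelihood F test, adjusted p = 0.0349) and none of the other 5 members, while 18.8% of 16053 genes were called. Gja1 in the PFC stood at a log2 fold change of -1.14 ± 0.32 against the average over the other regions (SE, adjusted p = 0.0399), where 12.7% of genes were called.

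No member passed in the contrast of the HIP, NAC or CPU with the other regions, in which 13.5%, 2.17% and 5.61% of genes were called. The largest value there was Gja1 in the CPU, with a log2 fold change of 1.06 ± 0.32 (SE) and an adjusted p of 0.0814 in edgeR and 0.0316 in DESeq2. In order of control means, Gja1 had 1050 ± 357 CPM in the CPU (SD, n = 2), 829 ± 316 in the NAC, 475 ± 156 in the HIP and 347 ± 45.9 in the PFC (SD, n = 3 each). Only the gap between NAC and HIP was larger than the SD of both neighbours. The call of Gja1 rests on few libraries. Its joint call was lost without any 1 of 7 of the 11 control libraries (the 3 of the PFC, HIP replicates 2 and 3, NAC replicate 3 and CPU replicate 1), with adjusted p between 0.0531 and 0.102. The PFC contrast was lost without any of the 3 PFC libraries, NAC replicate 3 or CPU replicate 1 (log2 fold change -1.24 to -0.97).

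The file name form bears on this contrast, since all CPU libraries are short and 2 of 3 PFC control libraries long. With the form as a covariate Gja1 in PFC control libraries was at a log2 fold change of -0.83 (adjusted p = 0.053). In a fit of all 40 libraries with condition and form as terms it was at -0.55 (adjusted p = 1.1e-05), with 47.4% of 16759 genes called in the PFC contrast.

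The second astrocyte connexin did not follow the first. Gjb6 averaged 481 ± 50.9 CPM in PFC control libraries, 388 ± 147 in the HIP, 330 ± 128 in the CPU (n = 2) and 314 ± 68.4 in the NAC (SD, n = 3 otherwise), and no gap between neighbours in this order exceeded their SD. It was not called in control libraries alone (log2 fold change in the PFC 0.46 ± 0.27, SE, adjusted p = 0.279). In the fit of all 40 libraries with condition as a term, which adds the defeated mice, Gjb6 was higher in the PFC than in the other regions by 0.47 on the log2 scale (adjusted p = 0.0069). That fit also placed Gjc3 lower in the PFC, at -0.51 (adjusted p = 0.00011). It called 43.4% of all genes in the PFC contrast, so these calls are to be read against a high background. Jointly over the 4 regions it called 5 members and 62.9% of genes, and with the form as a further term 5 members and 65.2%.

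Gjb2, Gjc3, Panx1 and Panx2 had control means that no gap between neighbouring regions separated beyond their SD. Gjb2 means ran from 12.9 CPM in the NAC to 20.3 CPM in the CPU, Gjc3 from 10.6 CPM in the PFC to 15.0 CPM in the HIP and the CPU, Panx1 from 4.49 CPM in the HIP to 6.67 CPM in the NAC, and Panx2 from 3.87 CPM in the PFC to 6.46 CPM in the HIP. In the 40-library fit with condition as a term Panx2 was higher in the HIP (0.82, adjusted p = 0.0035) and lower in the CPU (-0.96, adjusted p = 0.0103) than in the other regions, Gjc3 higher in the HIP (0.36, adjusted p = 0.0044) and Gjb2 lower in the NAC (-0.51, adjusted p = 0.0283). Of all genes 41.4%, 19.0% and 38.2% were called there in the HIP, NAC and CPU contrasts. All CPU libraries are of the short form, and with the form as a further term Panx2 was at -0.70 in the CPU, which did not pass (adjusted p = 0.0607; 38.0% of genes called), and at 0.67 in the HIP (adjusted p = 0.0153; 41.8%). Gjb2 was then at -0.58 in the NAC (adjusted p = 0.0026; 21.9%).

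Control means of Gja1 were lowest in the PFC and those of Gjb6 highest there. The ratio of Gjb6 to Gja1 counts within a library, which does not depend on the scaling of libraries, separated the control libraries of the 4 regions. In control libraries it was 1.46, 1.62 and 1.14 in the PFC, 0.841, 0.97 and 0.638 in the HIP, 0.466, 0.331 and 0.388 in the NAC, and 0.322 and 0.299 in the CPU. The ranges of the 4 regions did not overlap each other, in the order PFC, HIP, NAC, CPU from high to low. The lowest NAC value, 0.331, was close to the highest CPU value, 0.322. In the PFC and the NAC the long-form control libraries had the highest ratios, and the CPU has no long-form library. The ratio was chosen after its values were seen. Its difference between regions was not tested, and the share of gene pairs that separate in this way was not counted.

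**Figure D2:**
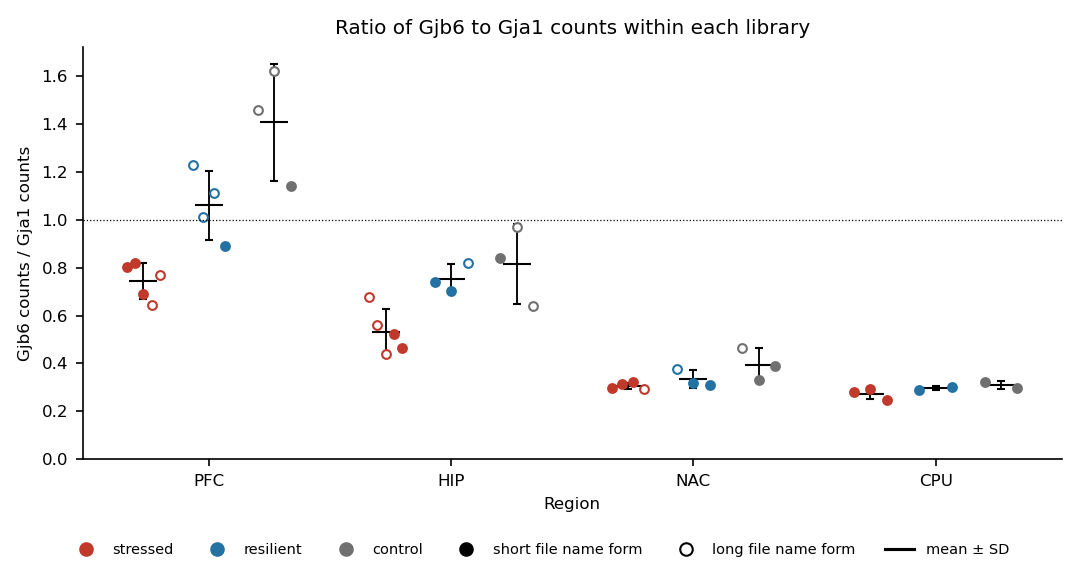
Gjb6 counts divided by Gja1 counts in each library (y axis, from 0; the dotted line marks equal counts), by region (x axis), with stressed, resilient and control libraries from left to right. Filled points are short-form and open points long-form libraries, and black lines are the mean ± SD; the 5 stressed PFC libraries, at 0.644 to 0.82, lie below all resilient and control PFC libraries.

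In the prefrontal cortex 3 of the 6 members were higher in stressed than in control mice. With all libraries Gja1, Panx1 and Panx2 rose, no member fell, and Gjb6, Gjb2 and Gjc3 did not pass the test. Of 15491 genes tested, 28.1% were called in this comparison, so 3 of 6 is to be read against a background of more than 1 gene in 4. Across all genes the median log2 fold change was 0.04.

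Gja1 had 757, 783, 793, 476 and 496 CPM in stressed PFC libraries, against 309, 334 and 398 CPM in control libraries. All 5 stressed libraries lay above all 3 control libraries, with a log2 fold change of 0.99 ± 0.27 (SE, adjusted p = 0.0189). How many of all genes separate in this way in the PFC was not counted. Resilient libraries had 341, 434, 478 and 663 CPM and overlapped both other groups.

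The Gja1 values differed by file name form within each group. Stressed replicates 1 to 3, of the short form, had 757 to 793 CPM against 398 CPM in the 1 short-form control library. Stressed replicates 4 and 5, of the long form, had 476 and 496 CPM against 309 and 334 CPM in the long-form control libraries. The log2 fold change was 0.74 with the form as a covariate (adjusted p = 0.0026), 0.54 in the long form alone (adjusted p = 0.0027) and 1.06 in the short form alone (adjusted p = 6.8e-08), where the lone control library is assumed to vary like the others. The call of Gja1 was lost without control replicate 1 (0.91, adjusted p = 0.0923) or control replicate 2 (0.96, adjusted p = 0.0699), and without stressed replicates 1 to 3 together (0.44, adjusted p = 0.135).

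Gjb6 and Gjb2 did not rise with Gja1 over all stressed PFC libraries. Gjb6 had 608, 642, 548, 307 and 382 CPM in stressed libraries, against 451, 540 and 453 CPM in control libraries. The short-form stressed libraries lay above every control library and the long-form ones below. The log2 fold change was 0.11 ± 0.26 (SE, adjusted p = 0.774). Within the short form Gjb6 was higher in stressed libraries (0.50, adjusted p = 0.0013), again against a lone control library assumed to vary like the others. Within the long form, with 2 stressed and 2 control libraries, it was lower (-0.58, adjusted p = 0.003). Of all genes 24.9% were called in the short form and 54.0% in the long form. Gjb2 had 22.9, 24.1, 19.7, 11.8 and 14.5 CPM in stressed libraries, against 13.5, 21.6 and 11.5 CPM in control libraries, and overlapped (0.31 ± 0.28, SE, adjusted p = 0.41). Gjb2 passed in the short form alone (1.04, adjusted p = 0.00023, with 1 control library) and without stressed replicates 4 and 5 (0.59, adjusted p = 0.028), and was at -0.47 in the long form alone (adjusted p = 0.0655).

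The Gjb6 to Gja1 ratio was lower in stressed PFC libraries of both forms. It was 0.803, 0.82, 0.691, 0.644 and 0.771 in stressed libraries, against 1.23, 1.01, 1.11 and 0.892 in resilient libraries and 1.46, 1.62 and 1.14 in control libraries. The mean was 0.746 ± 0.0755 in stressed (SD, n = 5), 1.06 ± 0.144 in resilient (SD, n = 4) and 1.41 ± 0.244 in control libraries (SD, n = 3). Stressed libraries overlapped neither other group, while resilient and control libraries overlapped at 1.14 to 1.23.

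The ratio was examined after its values were seen, in 12 comparisons (3 contrasts in 4 regions). In the PFC the two-sided exact permutation test gave p = 0.0357 for stressed against control and p = 0.0159 for stressed against resilient, in each case the smallest p the design allows. Adjusted over the 12 comparisons both were 0.143 and did not pass, and so was HIP stressed against resilient (difference -0.22, exact p = 0.0357, adjusted 0.143). The mean ratio of stressed libraries was below that of control libraries in each of the other regions too, at 0.533 against 0.816 in the HIP, 0.307 against 0.395 in the NAC and 0.273 against 0.31 in the CPU. The groups overlapped in the HIP and not in the NAC and the CPU. No adjusted p of the 12 was under 0.05, and for stressed against control the smallest p possible was 0.0571 in the NAC and 0.2 in the CPU.

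Both pannexins rose in the stressed prefrontal cortex. Panx2 had 4.83, 6.7, 8.04, 19.3 and 15.7 CPM in stressed libraries, against 3.33, 4.06 and 4.22 CPM in control libraries. The groups did not overlap, and long-form replicates 4 and 5 were highest. As for Gja1, the share of all genes that separate in this way was not counted. The log2 fold change was 1.48 ± 0.35 (SE, adjusted p = 0.00976). Without replicates 4 and 5 it was 0.82 (adjusted p = 0.0035), without control replicate 1 it was 1.39 (adjusted p = 0.0579), and in the short form alone it was 0.72 (adjusted p = 0.0838).

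Panx1 had 5.43, 6.06, 7.18, 9.27 and 8.64 CPM in stressed libraries, against 4.28, 5.98 and 5.25 CPM in control libraries. Stressed replicate 1 lay within the control range and replicate 2 just above it. The log2 fold change was 0.52 ± 0.17 (SE, adjusted p = 0.0358). This call was lost without any 1 of 5 libraries (control replicates 1 and 3, stressed replicates 3, 4 and 5), with log2 fold changes of 0.40 to 0.52, and without any filter on low counts (adjusted p = 0.0609). Without stressed replicates 4 and 5 together Panx1 was at 0.34 (adjusted p = 0.128), as in the short form alone (adjusted p = 0.381), and the call was lost in both.

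Neuron markers were higher in the same comparison. In the PFC 8 of 10 neuron markers were higher in stressed than in control mice, with none lower, and their sum was 2910 to 5620 CPM in stressed libraries against 2130 to 2960 CPM in control libraries. The 2 PFC libraries with the most Panx2, stressed replicates 4 and 5, had the highest neuron sums of the region, 5620 and 5330 CPM. The same 2 libraries had the strongest trend with length, taken per gene as the union of all exons. Across 11789 genes, log2 length was correlated with the log2 difference from the mean of the region's control libraries. The correlation was 0.464 and 0.409 in these 2, where the other 10 PFC libraries had -0.151 to 0.23. Microglia markers were higher too, 8 of 10, with sums of 39.5 to 87.9 CPM in stressed against 21.7 to 31.9 CPM in control libraries. So were 4 of 9 endothelial markers tested, 4 of 11 meningeal fibroblast markers, 4 of 7 mural markers tested and 4 of 12 oligodendrocyte markers. Of the 12 astrocyte markers 3 were higher and none lower. With 28.1% of all genes called in this comparison, the counts for astrocyte, oligodendrocyte and meningeal fibroblast markers are near the background. The part of other cells in the pannexin values was not tested.

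**Figure D3:**
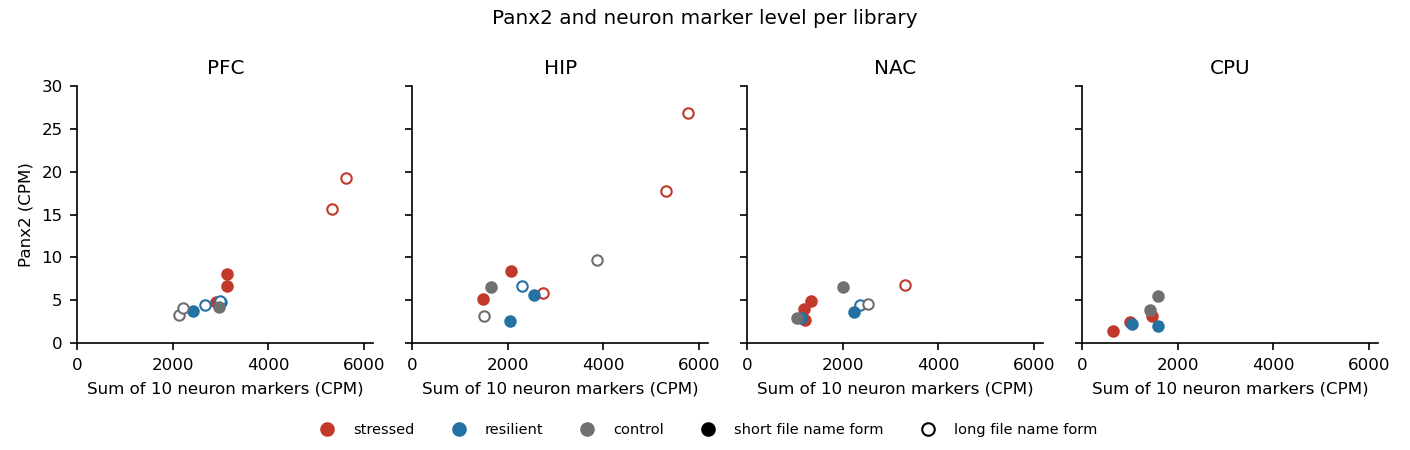
Panx2 in CPM (y axes) against the summed CPM of 10 neuron markers (x axes) in every library, 1 panel per region, with conditions by colour and filled points for the short and open points for the long file name form. The 4 libraries above 15 CPM of Panx2 are stressed libraries with neuron sums between 5320 and 5780 CPM.

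Gjc3 had 5.58, 7.98, 10.2, 7.01 and 6.02 CPM in stressed PFC libraries, against 12.4, 9.53 and 9.84 CPM in control libraries. Only stressed replicate 3 reached into the control range, and the difference did not pass the test (log2 fold change -0.49 ± 0.23, SE, adjusted p = 0.12). Without that library Gjc3 passed, at -0.64 (adjusted p = 0.0429). It was also lower in the long form alone (-0.81, adjusted p = 0.0046) and without stressed replicates 1 to 3 (-0.75, adjusted p = 0.0135), while in the short form alone it was at -0.22 and did not pass.

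Against resilient mice, 1 of 6 members was called in the stressed prefrontal cortex, with 25.0% of all genes called. Panx2 had 4.83 to 19.3 CPM in stressed libraries with a median of 8.04, against 4.83, 4.39, 4.96 and 3.8 CPM in resilient libraries. The lowest stressed library lay within the resilient range. The log2 fold change was 1.30 ± 0.31 (SE, adjusted p = 0.011), and the call held without any 1 library. In the short form alone, with 1 resilient library, Panx2 was at 0.78 (adjusted p = 0.0653).

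Gja1 was at a log2 fold change of 0.54 ± 0.24 (SE) in stressed against resilient PFC libraries and did not pass (adjusted p = 0.116). It passed without resilient replicate 4, the short-form library at 663 CPM (0.78, adjusted p = 0.0361), and without stressed replicate 4 (0.64, adjusted p = 0.0445). Gjb6, Gjb2, Gjc3 and Panx1 were at 0.09, 0.38, -0.26 and 0.31 and did not pass. The 2 comparisons of stressed mice share the stressed libraries, and those with control mice share the control libraries, so they are not independent. Between resilient and control PFC libraries no member was called, with 0% of all genes called and 364 genes at an unadjusted p under 0.05. None of the 6 members was among those 364, and DESeq2 called 0 genes too. Gja1 had the largest value, 0.45 ± 0.28 (SE, adjusted p = 1).

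In the hippocampus, nucleus accumbens and caudate putamen no member was called in any of the 3 contrasts, and edgeR called 0% of the genes there (15758, 15283 and 14958 tested). At an unadjusted p under 0.05 edgeR had 225 to 2718 genes in the HIP, 119 to 302 in the NAC and 382 to 1430 in the CPU. DESeq2 called up to 186, 1 and 39 genes, none of them a member. Among the members the unadjusted p was under 0.05 for Panx2 in 3 contrasts (HIP stressed against resilient, CPU stressed against control, CPU resilient against control) and for Gjc3 in 2 (NAC stressed against resilient, CPU stressed against control).

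Gja1 in the HIP had 481, 434, 566, 1130 and 999 CPM in stressed libraries, against 447, 561 and 453 CPM in resilient and 653, 363 and 410 CPM in control libraries. The 2 highest values were both of the short form, and the log2 fold change against control was 0.60 ± 0.39 (SE, adjusted p = 0.533). Within the short form alone, stressed (1130 and 999 CPM) against resilient (447 and 561 CPM) passed at 1.19 (adjusted p = 0.0314). In the NAC Gja1 had 1320, 1150, 1210 and 646 CPM in stressed, 604, 1080 and 1160 CPM in resilient and 533, 1160 and 793 CPM in control libraries. The lowest value of each NAC group was its 1 long-form library. In the CPU, where all libraries are short, Gja1 had 1270, 1400 and 1440 CPM in stressed, 1230 and 1160 CPM in resilient and 1300 and 800 CPM in control libraries (0.45 ± 0.23 against control, SE, adjusted p = 0.56).

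Gjb6 stayed within 0.25 of 0 on the log2 scale in stressed against control mice in each of these regions, with -0.05 ± 0.37 in the HIP, 0.16 ± 0.31 in the NAC and 0.25 ± 0.25 in the CPU (SE). Group means of Gjb6 were 374, 365 and 388 CPM in stressed, resilient and control HIP libraries, 334, 309 and 314 CPM in the NAC, and 373, 353 and 330 CPM in the CPU. In stressed against control mice Gjb2 was at 0.22 in the HIP, 0.38 in the NAC and 0.33 in the CPU, with SE of 0.35, 0.33 and 0.38. Panx1 was at 0.43, 0.15 and -0.04 in the same regions, with SE of 0.32, 0.34 and 0.35. None of these passed the test.

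Panx2 had 5.84, 26.8, 17.8, 8.4 and 5.11 CPM in stressed HIP libraries, against 2.6, 5.56 and 6.65 CPM in resilient and 6.56, 3.18 and 9.65 CPM in control libraries. Stressed replicates 2 and 3 stood above all other libraries of the region, and their neuron sums of 5780 and 5320 CPM and length correlations of 0.46 and 0.527 were its highest. Against control the log2 fold change was 0.93 ± 0.55 (SE, adjusted p = 0.525) and against resilient 1.34 ± 0.57 (SE, adjusted p = 0.279). Without these 2 libraries Panx2 was at 0.05 and 0.45. In the CPU Panx2 had 1.41, 2.48 and 3.2 CPM in stressed, 2.05 and 2.26 CPM in resilient and 5.53 and 3.83 CPM in control libraries. Neither stressed nor resilient CPU libraries overlapped the control libraries, and the differences did not pass (-0.93 ± 0.35, adjusted p = 0.501, for stressed and -1.08 ± 0.40, adjusted p = 0.561, for resilient, SE). In an exact permutation test, groups of these sizes that separate fully reach p = 0.2 for stressed and 0.333 for resilient libraries. The share of all genes that separate in this way was not counted. The summed neuron markers of the CPU were 635 to 1450 CPM in stressed, 1050 to 1590 CPM in resilient and 1420 to 1580 CPM in control libraries, and their part in the Panx2 values was not tested. In the NAC Panx2 was at 0.02 ± 0.35 against control (SE).

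Averaged over the 4 regions, Gja1 rose and Gjc3 fell in stressed against control mice, with 10.2% of 16759 genes called. Gjc3 had the smaller adjusted p of the pair, 0.0157, for a log2 fold change of -0.47 ± 0.12 (SE). Its values were -0.49 in the PFC, -0.31 in the HIP, -0.44 in the NAC and -0.62 in the CPU, none of which passed alone. Gjc3 had 11.4, 13.8, 16.4, 11.2 and 8.53 CPM in stressed HIP libraries, against 15.5, 15.4 and 15.5 CPM in resilient and 11, 21.7 and 12.3 CPM in control libraries. It had 9.89, 6.77, 8.58 and 10.6 CPM in stressed NAC libraries, against 18.1, 14.7 and 10.9 CPM in resilient and 18.0, 10.5 and 10.1 CPM in control libraries. In the CPU it had 7.02, 10.6 and 10.1 CPM in stressed, 11.1 and 15.0 CPM in resilient and 14.2 and 15.9 CPM in control libraries. Stressed libraries lay below all resilient ones in the NAC and the CPU and below all control ones in the CPU. The smallest p of an exact permutation test for groups of these sizes is 0.0571 in the NAC and 0.2 in the CPU. The share of all genes that separate in this way was not counted.

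Oligodendrocytes are among the cells that Gjc3 is known from. Of the 12 oligodendrocyte markers 1 was called higher and 0 lower over the mean of regions, where 10.2% of genes were called. Their median log2 fold change was 0.01. In the CPU their sums were 1020 to 1390 CPM in stressed, 1510 to 1560 CPM in resilient and 1560 to 1600 CPM in control libraries. In the PFC, HIP and NAC the sums of stressed libraries overlapped those of both other groups. The part of these cells in the Gjc3 values was not tested. Gjc3 was called again with the file name form as a covariate (-0.44, adjusted p = 0.0129). Its call was lost without HIP control replicate 2, the library at 21.7 CPM (-0.38, adjusted p = 0.0513), or CPU control replicate 2 (-0.47, adjusted p = 0.0619).

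Gja1 rose by 0.62 ± 0.19 on the log2 scale over the mean of regions (SE, adjusted p = 0.039). The regional values were 0.99 in the PFC, 0.60 in the HIP, 0.44 in the NAC and 0.45 in the CPU. With the file name form as a covariate it was 0.49 (adjusted p = 0.0027). The call was lost without any 1 of 12 of the 40 libraries (PFC control replicates 1 and 2 and stressed 3, HIP control 2 and stressed 4, NAC control 1 and 3 and stressed 1 and 2, CPU control 2 and stressed 2 and 3), with log2 fold changes between 0.52 and 0.62 and adjusted p up to 0.159, the last without CPU control replicate 2. Gjb6, Gjb2, Panx1 and Panx2 were at 0.11, 0.31, 0.26 and 0.37 and were not called.

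Against resilient mice, Gjc3 fell and Panx2 rose in stressed mice over the mean of regions, with 19.1% of genes called. Gjc3 was at a log2 fold change of -0.41 ± 0.12 (SE, adjusted p = 0.017) and Panx2 at 0.81 ± 0.24 (SE, adjusted p = 0.0187). The call of Gjc3 was lost without CPU resilient replicate 2 (-0.36, adjusted p = 0.0735), and that of Panx2 without CPU resilient replicate 1 (0.79, adjusted p = 0.0541) or 2 (0.83, adjusted p = 0.0558).

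The call of Panx2 over the regions was lost when stressed libraries that stood apart were left out together. Without the 5 stressed libraries with the strongest length trend (PFC replicates 4 and 5, HIP 2 and 3, NAC 4), Panx2 was at 0.38 against resilient mice (adjusted p = 0.148) and at -0.05 against control mice (adjusted p = 0.913). This cannot show what the call rests on, since these 5 include the libraries with the most Panx2 in the PFC, HIP and NAC. Without them Gjc3 was at -0.43 against resilient (adjusted p = 0.0133) and -0.47 against control mice (adjusted p = 0.0123), and Gja1 at 0.62 (adjusted p = 0.0097) and 0.82 (adjusted p = 0.0033). Gjb2 passed in that setting, at 0.64 against resilient (adjusted p = 0.0053) and 0.53 against control mice (adjusted p = 0.0256). All 5 left-out libraries are of the long form, so the stressed PFC and NAC groups then held short-form libraries only. Control and resilient groups there kept both forms, and short-form libraries had more Gja1 and Gjb2 (0.85 and 0.55 on the log2 scale). The part of the form in these values was not tested. With all 40 libraries Gja1 (0.43, adjusted p = 0.104) and Gjb2 (0.43, adjusted p = 0.099) did not pass. Gja1 passed with the form as a covariate, at 0.35 (adjusted p = 0.0126), and Gjb2 without NAC stressed replicate 4, at 0.49 (adjusted p = 0.0486). Of the 10 neuron markers 3 were higher in stressed mice in this comparison, and of the 10 microglia markers 7, with 19.1% of genes called. Resilient against control mice gave no call among the members, with 0.0179% of genes called. Panx2 had the largest value there, -0.44 ± 0.26 (SE, adjusted p = 0.682).

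**Figure D4:**
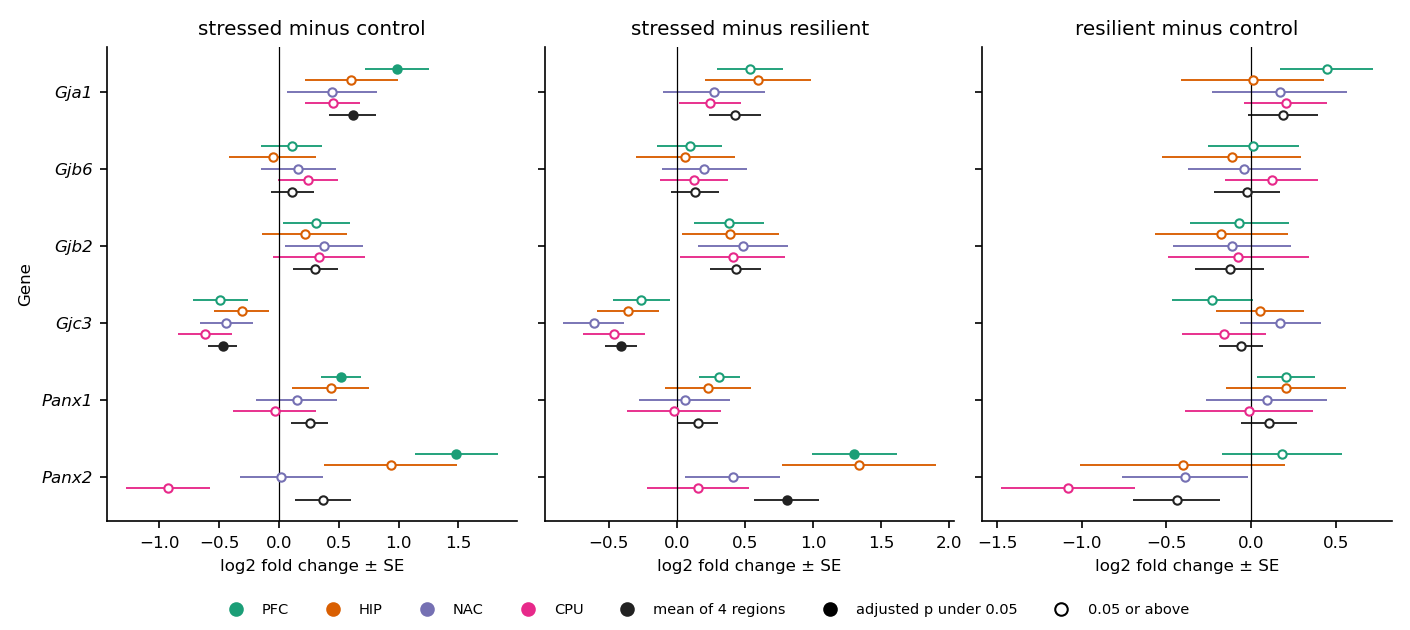
Log2 fold change ± SE (x axes) of each member (y axis) for the 3 contrasts, 1 panel each, with colours for the 4 regions and for their mean. Filled points have an adjusted p under 0.05: Gja1, Panx1 and Panx2 in PFC stressed minus control, Panx2 in PFC stressed minus resilient, Gja1 and Gjc3 in the mean of regions against control, and Gjc3 and Panx2 against resilient.

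Whether an effect of condition differed between regions was tested directly over all 40 libraries. No member was called in any of the 3 contrasts, and edgeR called 0% of 16759 genes in each, with 2108, 1168 and 273 genes at an unadjusted p under 0.05 for stressed against control, stressed against resilient and resilient against control. DESeq2 called 254, 0 and 2 genes, none of them a member. Panx2 was the 1 member with an unadjusted p under 0.05, in stressed against control mice. The PFC calls are therefore not shown to be particular to the PFC.

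Short-form libraries had more of the 3 astrocyte-type connexins and less Panx2 than long-form ones. In 1 fit of the 33 libraries of the PFC, HIP and NAC, short minus long form gave Gja1 0.85 ± 0.09, Gjb6 0.71 ± 0.11 and Gjb2 0.55 ± 0.14 on the log2 scale (SE, adjusted p = 8.4e-07, 3.1e-05 and 0.004). Panx2 was at -0.54 ± 0.21 (SE, adjusted p = 0.0438), and Gjc3 and Panx1 did not pass. Of all genes, 33.6% were called. In the same fit 11 of 12 astrocyte markers were higher and 4 of 10 neuron markers lower in the short form. Short and long forms were unevenly spread, with 3 and 2 libraries in stressed, 1 and 3 in resilient and 1 and 2 in control PFC mice.

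Between libraries of the same group the 3 astrocyte-type connexins varied together. After group means were taken off, log2 CPM of Gja1 and Gjb6 had a Pearson correlation of 0.928 over the 40 libraries, Gjb6 and Gjb2 0.884 and Gja1 and Gjb2 0.792. The points share libraries, forms and depths. The 3 windows printed above share no motif match. Panx1 and Panx2 had 0.82. Gjc3 was at -0.324 to 0.153 with the other 5. Before group means were taken off, Gja1 and Gjb6 had 0.252.

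The genes whose log2 CPM was most like each member's over the 40 libraries, among 12480 genes, are given as a description. For Gja1 they were Ntrk2 (0.981), a neurotrophin receptor, Ednrb (0.976), an endothelin receptor, and Scd2 (0.974), a fatty acid desaturase. For Gjb6 they were Mmgt2 (0.933), Lcat (0.902), which esterifies cholesterol on lipoproteins, and Tm7sf2 (0.867), a sterol reductase. Gjb2 was most like Olfml1 (0.899), Vwa1 (0.868) and B2m (0.865), the light chain of class I histocompatibility molecules. Gjc3 was most like Tmem88b (0.86), Ermn (0.777) and Opalin (0.771), and Ermn and Opalin are myelin-forming cell genes. Panx1 was most like Syt5 (0.828), Lgi2 (0.807) and Myt1l (0.776), and Panx2 most like Eef1a2 (0.936), Shank2 (0.935), a postsynaptic scaffold, and Iqsec3 (0.928). The values in parentheses are Pearson correlations.

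Of the other 17 connexin and pannexin genes, 7 to 9 passed the filter in the PFC, HIP, NAC or joint fits and 3 in the CPU. Gjb1 (Cx32), an oligodendrocyte connexin, did not pass in the PFC for stressed against control (0.52 ± 0.35, SE, adjusted p = 0.27). In control libraries Gjb1 was lower in the PFC than in the other regions, at a log2 fold change of -1.46 ± 0.30 (SE, adjusted p = 0.0114). In the same contrast 9 of 12 oligodendrocyte markers were lower too, with 12.7% of all genes called. Gja4 (Cx37), a vascular connexin, had 0.329 to 0.661 CPM in PFC control libraries. It had at most 0.322 CPM in those of the HIP, 0.157 in the NAC and 0.234 in the CPU. Among control libraries Gja4 passed the filter on low counts through those of the PFC alone. Its call as higher there (log2 fold change 1.51 ± 0.41, SE) therefore gives no support beyond these low values. Gja3, known from the lens, had 0.297, 0.477 and 0.459 CPM in HIP control libraries and at most 0.0734 CPM in the control libraries of the other regions. Among control libraries Gja3 passed the filter on low counts through those of the HIP alone. Its call as higher there therefore gives no support beyond these values, which are close to the floor. Gjd3 fell by a log2 fold change of -0.88 ± 0.26 over the mean of regions in stressed against control mice (SE, adjusted p = 0.0325), where 10.2% of genes were called. Its levels were 0 to 0.865 CPM in stressed and 0.234 to 1.15 CPM in control libraries. Gja5, Gjc1 and Gjd2 passed the filter in at least 1 fit and were not called. Panx3, the remaining pannexin, had no count in any library.

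Both lists of genes that work beside these channels were read from the same fits. The 22 junction partners are proteins that anchor, phosphorylate or traffic connexins. In PFC stressed against control mice 7 were higher and 2 lower, with a median log2 fold change of 0.31 against 0.04 over all genes and 28.1% of genes called. Tjp1, the ZO-1 scaffold that binds the Cx43 tail, was higher by 0.93 ± 0.13 (SE, adjusted p = 0.00103), Ctnnb1, beta-catenin, by 0.77 ± 0.15 (SE, adjusted p = 0.0042) and Cdh2, N-cadherin, by 0.98 ± 0.20 (SE, adjusted p = 0.0053). Mapk7, a kinase, was lower by a log2 fold change of -0.60 ± 0.11 (SE, adjusted p = 0.0024). Against resilient mice, where 25.0% of genes were called, 7 were higher and 2 lower, led by Tjp1 (0.90), Mapk7 (-0.58), Nedd4 (0.96), a ubiquitin ligase, and Ctnnb1 (0.68).

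Over the mean of regions 3 partners were higher and 1 lower against control mice (Cdh2 0.62, Tjp1 0.44, Ctnnb1 0.41, Mapk7 -0.29; 10.2% of genes called), and 5 higher and 1 lower against resilient mice (19.1% called). None was called in any contrast of conditions in the HIP, NAC or CPU, where 0% of all genes were called. In control libraries 6 partners were higher in the HIP than in the other regions, where 13.5% of genes were called, led by Cav1 (1.96 ± 0.23, SE, adjusted p = 6.35e-04), a caveola protein, Tjp3 (4.22), Prkce (0.80) and Ocln (2.94). Choroid plexus markers summed to 50.2 to 8000 CPM in HIP control libraries and to at most 31.4 CPM in those of other regions. The part of choroid plexus in these values was not tested. Cav1 was lower in the NAC (-1.39; 2.17% of genes called) and Cnst, which carries connexins to the membrane, lower in the PFC (-0.69; 12.7% called).

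Of 18 other large-pore channel genes 13 passed the filter, and 6 were higher and none lower in PFC stressed against control mice, with a median log2 fold change of 0.77 and 28.1% of all genes called. Those with the smallest adjusted p were Abcc1 (1.15 ± 0.22, SE, adjusted p = 0.0039), an organic anion exporter, Fam26e (1.24), also called Calhm5, Lrrc8b (1.15), a subunit of volume-regulated anion channels, and Ttyh3 (0.64). Against resilient mice, with 25.0% of genes called, 4 were higher (Fam26e 1.33, Abcc1 0.95, Lrrc8b 0.84, Lrrc8a 0.93). Over the mean of regions 2 were higher against control mice (Abcc1 0.54, Ttyh2 0.62), with 10.2% of genes called, and 4 against resilient mice, with 19.1% called. In control libraries Abcc1, Lrrc8d and Ttyh2 were lower in the PFC (-1.10, -0.53 and -1.34), with 12.7% of genes called. Lrrc8b was higher in the CPU (0.95), with 5.61% called.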

How the data were processed

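RNA bound to EGFP-tagged ribosomes was sequenced from 40 libraries in 12 groups. The authors deposited whole-number counts per gene symbol for each library. The submitters' processing notes name STAR 2.0.0e, HTSeq and the build mm10. The version of HTSeq, its mode, strand option and gene models are not given in the sources used here. Reads outside genes (17.0% to 20.1%) were left out, and CPM refers to counts in genes, 21.3 to 33 M per library. No 2 libraries of a group agreed within sampling noise (52 pairs, lowest chi-square over degrees of freedom 8.25).

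Counts were tested with edgeR 4.0.16 (robust quasi-likelihood F test, TMM, filterByExpr) in R 4.3.3. Benjamini-Hochberg adjustment ran over all genes tested, and an adjusted p under 0.05, two-sided, was called. Adjusted p-values of genes are from this test unless DESeq2 (1.42.0) is named. Fits held the 3 conditions of a region, the control libraries, or all 40 libraries by group, with no term for the mice. The SE is the log2 fold change over the square root of F. The procedure was tested on simulated data. Same-numbered libraries were treated as unpaired outside the replicate block, since the labels name no pairing. Of 34 same-numbered pairs, 10 had correlated deviations over 0.1 (range -0.23 to 0.691). Whether some libraries are paired cannot be told from these values.

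Members, lists, tests and alternatives were chosen with earlier results of these data known. Named genes were the 6 members, each other connexin or pannexin that passed the filter (some are not reported here), up to 4 called genes of each list per comparison by adjusted p, and the 3 genes most like each member. Calhm4 to Calhm6 were matched by older symbols (Fam26d to Fam26f), and Calhm3 was not matched. Alternatives were DESeq2, RLE factors, no filter, a replicate block, the file name form as covariate or alone, and leaving out libraries.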

Additional observations from a re-analysis of the deposited data

Results flagged for a closer look

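Gjb6 in NAC stressed replicate 4 was at 190 CPM, where the other 3 stressed NAC libraries had 360 to 394 CPM. The gap to the nearest library was 0.833 of the range of the group, above Dixon's 95% critical value for 4 samples. This library is the 1 long-form library of its group, and the long-form libraries of the other NAC groups, at 227 CPM in resilient and 248 CPM in control mice, were also the lowest of their groups. In all, 24 pairs of a member and a group of 4 or 5 libraries were examined and 1 was flagged, and chance flags about 1 in 20.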

How the results depend on the processing

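Of 3432 values of the members under the alternatives, 3319 stayed on their side of the threshold, 54 lost a call, 55 gained one with the same sign and 4 reversed. Another 135 values called in neither fit changed sign, and none of the 306 values of called results did. The 4 reversals are all Gjb6 in the PFC: -0.58 in the long form alone and -0.53 without stressed replicates 1 to 3 against control, and -0.41 and -0.53 in the same 2 settings against resilient mice. Members called in PFC stressed against control numbered 3, but 1 with the replicate block (Gja1) and 5 in the long form alone, where 54.0% of all genes were called. The block took Panx1 to 0.43 and Panx2 to 1.04. In stressed against resilient they numbered 1, but 4 in the long form alone, 4 when stressed replicates 4 and 5 were left out, and 3 when replicates 1 to 3 were. For these settings, and for the short-form HIP contrast that follows, the share of all genes called is not given here. The counts therefore cannot be set against a background. The short form alone gave 2 in PFC resilient against control, from 1 library of each with the spread taken from the stressed libraries, which says nothing about stability, and 1 in HIP stressed against resilient, where 0 were called. In control libraries 1 member was called jointly and in the PFC, but 0 without a filter, with the replicate block, with the form as covariate or in the short form alone. With all 40 libraries and condition as a term 5 were called jointly, 3 in the PFC, 3 in the HIP, 2 in the NAC and 2 in the CPU, and with the form as a further term 5, 3, 4, 3 and 2. Of all genes these fits called 62.9%, 43.4%, 41.4%, 19.0% and 38.2%, and 65.2%, 47.4%, 41.8%, 21.9% and 38.0%. DESeq2 called 1 in the CPU, where edgeR called 0. Leaving out 1 library gave 0 to 3 members in PFC stressed against control, 1 to 2 against resilient, 0 to 1 in the control joint, PFC and CPU contrasts, 0 to 2 in the mean of regions against control and 0 to 3 against resilient, and 0 in the other comparisons. The cause of these changes was not tested, other than that left-out settings hold fewer libraries. RLE factors changed no call. Of the alternatives, the fits without HIP stressed replicates 2 and 3 or without the 5 libraries named above, those of control libraries by file name form, the fit with condition and form together, the form coefficient and the exon union were chosen after seeing the data. Depth limits Panx2 most, with as few as 37 counts.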
